A study of Mus musculus with 48 samples.

Results

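The angiopoietins, their Tie receptors and close relatives were followed through 4 cell types of the mouse neurovascular unit after experimental stroke. The set held 7 genes, chosen by name from the 24973 genes measured: the ligands Angpt1 and Angpt2, the receptors Tek (Tie2) and Tie1, the receptor phosphatase Ptprb (VE-PTP), and the angiopoietin-like genes Angptl2 and Angptl4. Each gene was found as a single row. The animals were wild-type C57BL/6 male mice aged 12 to 15 weeks in which the right middle cerebral artery was occluded with a filament for 1 h and reperfused for 23 h. From each brain the stroke side (ipsilateral) and the opposite side (contralateral) were dissociated, and a cell sorter separated 4 populations, microglia (MG), astrocytes (AC), pericytes (PC) and endothelial cells (EC), which gave 8 groups of 6 replicates and 48 libraries. A replicate was a pool of hemispheres from 3 to 4 mice, and both hemispheres and all 4 cell types were taken from the same animals. Libraries with the same replicate number were taken to come from the same pool. The control tissue was therefore the other hemisphere of operated animals and not sham tissue, and all cells had passed through tissue digestion and sorting.

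As background, Angpt1 is secreted by mural and other perivascular cells and activates Tek on the neighbouring endothelium, which stabilises vessels. Angpt2 is made by endothelial cells, is stored and released upon activation, and in most settings competes with Angpt1 at the same receptor. Tie1 forms complexes with Tek and modulates its signal, and Ptprb removes phosphate from Tek and from VE-cadherin at endothelial junctions. Angptl2 and Angptl4 resemble angiopoietins in structure but do not bind Tie receptors: Angptl2 binds integrin alpha5 beta1 and the receptor Pirb, whereas Angptl4 inhibits lipoprotein lipase and is a target gene of PPAR nuclear receptors and of hypoxia.

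RefSeq (GRCm38.p6) promoter sequences were matched for 3 of the 7 genes, from 250 bases before to 50 bases after the start site of RefSeq's own gene model. The promoters of both receptors are shown because Tek and Tie1 were both highest in EC of either hemisphere. Capitals mark the core letters of endothelial factor families found by a search of both strands, AGATAA for GATA factors in Tek, and AGGAAG for ETS factors in Tie1, where it lies on the opposite strand and reads CTTCCT. The sequences run 5′ to 3′ on the strand of the gene, at chr4:94739039-94739338 on the plus strand for Tek and at chr4:118489800-118490099 on the minus strand for Tie1.
Tek: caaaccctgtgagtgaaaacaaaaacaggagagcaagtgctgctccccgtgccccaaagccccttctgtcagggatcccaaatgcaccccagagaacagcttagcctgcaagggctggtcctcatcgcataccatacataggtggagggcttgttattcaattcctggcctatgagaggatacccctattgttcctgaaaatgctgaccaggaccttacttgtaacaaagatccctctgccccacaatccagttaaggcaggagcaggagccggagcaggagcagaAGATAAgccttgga
Tie1: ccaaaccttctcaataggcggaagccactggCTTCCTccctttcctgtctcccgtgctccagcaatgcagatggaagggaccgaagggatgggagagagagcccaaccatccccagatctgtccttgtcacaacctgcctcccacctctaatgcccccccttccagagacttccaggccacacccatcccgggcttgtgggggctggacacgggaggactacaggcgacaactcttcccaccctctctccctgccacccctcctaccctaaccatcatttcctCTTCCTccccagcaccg
The Tek match began 36 bases after the start site, and the Tie1 matches began 219 bases before and 33 bases after the RefSeq start of Tie1. That start lies inside Tie1 as the deposited table places the gene, the Angptl2 start lies upstream of the table's, and the Tek start is the same in both. Neither GTAAACA (forkhead core) nor ACGTG (HIF core) occurred in the Tek, Tie1 or Angptl2 window. Of 32851 mouse promoters of the same length, 11.2% held AGATAA, 35.4% AGGAAG, 3.65% GTAAACA and 19.6% ACGTG. These letters are common, and a match describes the sequence only.

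By the coordinates of the deposited table (GRCm38), Tek (chromosome 4, 94739289 to 94874976) and Tie1 (chromosome 4, 118471191 to 118490061) lie on the same chromosome. Angpt2 (chromosome 8, 18690263 to 18741562) lies inside the span of Mcph1, and Angptl2 (chromosome 2, 33216069 to 33247717) lies inside that of Ralgps1, in both cases without a shared exon base. Angpt1 (chromosome 15, 42424727 to 42676977) shares 14.2% of its exon bases with the gene model Gm17473, and since reads that overlapped several genes were not counted, its level is less certain than the others. Ptprb (chromosome 10, 116275550 to 116389535) and Angptl4 (chromosome 17, 33773750 to 33781575) share no exon base with another gene. Values are normalized counts, the read counts of a gene divided by a size factor of its library.

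The sum of normalized counts per library ranged from 10549900 to 16942165, and the smallest steps between values gave an estimated 4950000 to 17070000 reads on genes, so that 3 reads stood for at most 8 normalized counts. For the 12 ipsilateral PC and MG libraries the title of the sample named MG where the table's column named PC, and the reverse, and the columns were followed. Under these names the summed markers of each cell type did not overlap with the other cell types: 69421 to 115720 for EC markers in EC and at most 7509 elsewhere, 19546 to 120082 for PC markers in PC and at most 9434 elsewhere, 54856 to 178046 for AC markers in AC and at most 5395 elsewhere, and 118157 to 349237 for MG markers in MG and at most 36252 elsewhere. The PC libraries also held all 5 smooth muscle markers, with a sum between 328724 and 505264 contralaterally and between 157294 and 347034 ipsilaterally. The AC libraries held all 5 oligodendrocyte lineage markers, with sums of 31542 to 351439. In EC, PC and AC the summed MG markers were low in replicates 5 and 6 and higher in most of replicates 1 to 4, and fits on replicates 1 to 4 alone were therefore added to the comparisons.

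The first question was which cell types carried these transcripts. Angpt1 was highest in PC, Angpt2 in PC and EC, and Tek, Tie1 and Ptprb in EC. Angptl2 was found in PC and AC, and Angptl4 in all cell types but at a much lower level in MG. Comparing neighbours in the order of mean log2 levels, 18 of 42 neighbouring pairs differed in the joint limma fit (adjusted p at most 0.05, Benjamini-Hochberg, n = 6 per group), 10 of 21 contralaterally and 8 of 21 ipsilaterally. Over all genes and all contrasts between cell types in that fit, 42.9% passed the same threshold.

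**Figure D1:**
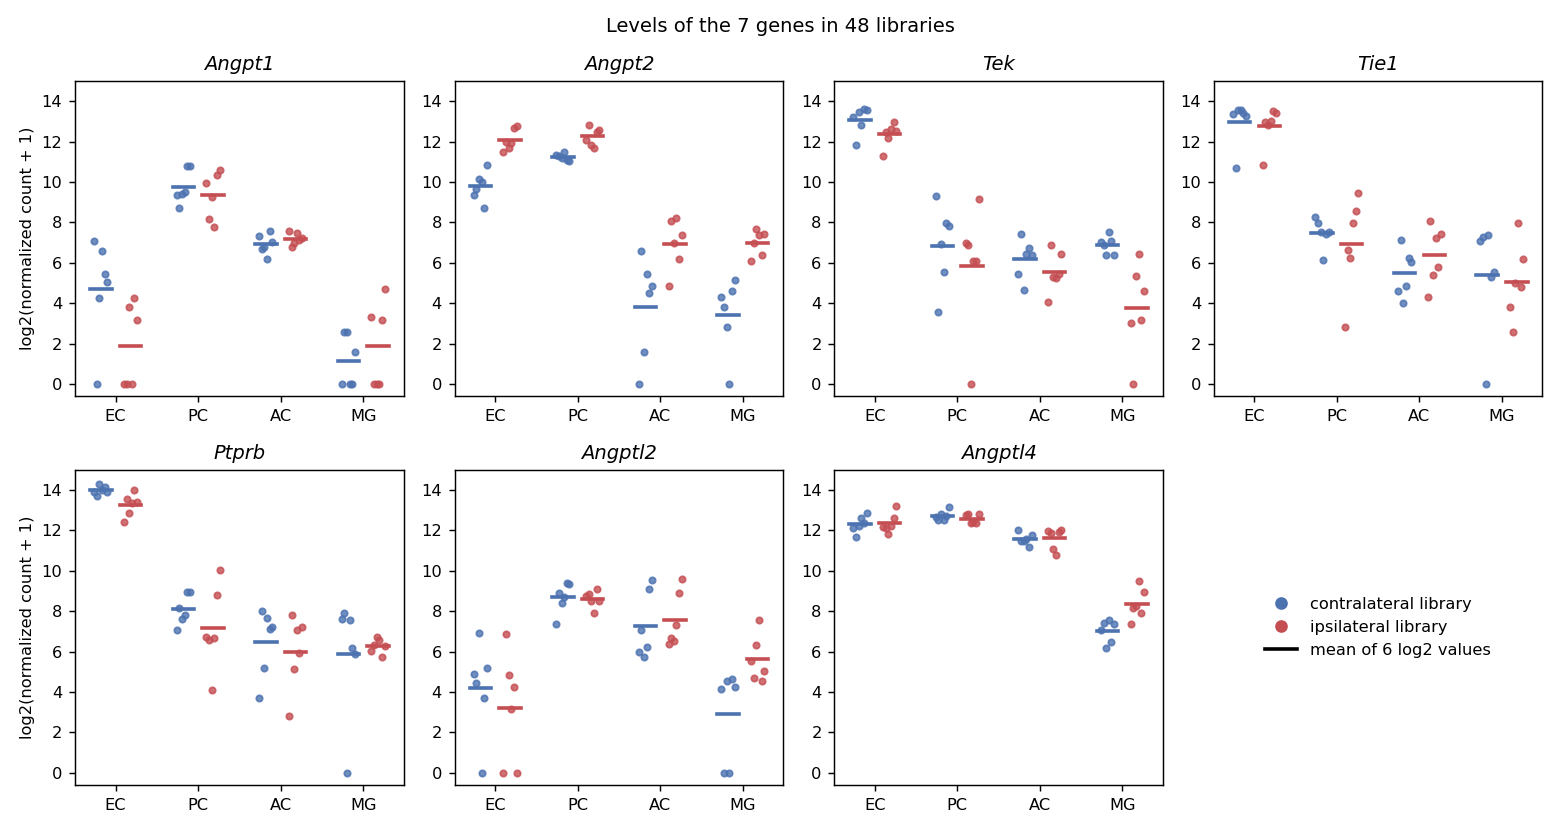
Levels of the 7 genes as log2(normalized count + 1), a point per library and a bar at the mean of 6 log2 values, in sorted cells (EC, endothelial cells, PC, pericytes, AC, astrocytes, and MG, microglia) of the contralateral (blue) and ipsilateral (red) hemisphere. The receptors and Ptprb stood highest in EC, Angpt1 in PC, and the red points of Angpt2 lay above the blue ones without overlap in EC, PC and MG.

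Among the ligands, Angpt1 had contralateral values from 422 to 1787 in PC (median 712), from 71 to 191 in AC (median 118), from 0 to 133 in EC (median 37) and from 0 to 5 in MG (median 1). The order PC, AC, EC, MG held at each step, with differences of 2.85 ± 0.88 (log2, SE; adjusted p = 0.00682), 2.19 ± 0.88 (adjusted p = 0.0355) and 3.60 ± 0.88 (adjusted p = 7.8e-04) in limma. Ipsilaterally the PC values of Angpt1 were 220 to 1522 (median 812) and the AC values 111 to 187 (median 144.5), so that both ranges overlapped with their contralateral counterparts. The stroke change was -0.42 ± 0.51 in PC (adjusted p = 0.737) and 0.28 ± 0.28 in AC (adjusted p = 0.816). In EC the ipsilateral values of Angpt1 were 0 to 18 (median 4), lower than the contralateral partner in 5 of 6 pairs and equal in the other, with a change of -2.86 ± 1.26 that did not pass the threshold (adjusted p = 0.379). These EC levels were small beside those of PC, and the summed PC markers in EC were 521 to 1847 contralaterally and 173 to 1414 ipsilaterally. Their part in the EC values was not tested. In MG, Angpt1 reached 25 at most and was below the level required for a test.

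Angpt2 was higher in the ipsilateral than in the contralateral hemisphere in all 6 pairs of each of the 4 cell types. A gene was called regulated when its adjusted p was at most 0.05, its change at least 1.5-fold, and each of the 6 values of 1 hemisphere above 10. By this rule Angpt2 rose in EC, PC and MG, and it was the only one of the 7 genes regulated in EC and in PC. In bulk libraries such as these, a change in the amount of RNA per cell and a change in the mix of sorted cells cannot be told apart.

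In EC, Angpt2 ranged from 418 to 1809 contralaterally (median 918.5) and from 2877 to 7015 ipsilaterally (median 3976). The lowest ischemic library lay above the highest control library, and the replicate with the lowest control value, number 5, had one of the highest ischemic values (6459). The log2 fold change was 2.30 ± 0.33 (95% interval 1.59 to 3.01; adjusted p = 0.00814). This was 1 of 7 genes against 0.491% of the 13242 genes tested in EC (0.785% with a replicate block). The call was lost without replicate 4 (2.37, adjusted p = 0.0519) and in the joint fit of 48 libraries (adjusted p = 0.0780). Markers of other cells differed between the same EC libraries: AC markers summed to 1181 to 2711 contralaterally and 3559 to 5395 ipsilaterally, MG markers to 271 to 11513 and 336 to 26586, and neutrophil markers to 0 to 1516 and 91 to 9153. PC markers were lower, with sums of 521 to 1847 contralaterally and 173 to 1414 ipsilaterally. Smooth muscle markers were lower too, with 505 to 6181 and 226 to 1705. Ipsilateral AC and MG had 160 ± 108 and 137 ± 54.4 normalized counts of Angpt2 (SD, n = 6). Ipsilateral EC had 4593 ± 1723 and ipsilateral PC 5085 ± 1550. The part of these other cells in the EC values of Angpt2 was not tested.

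In PC, Angpt2 ranged from 2117 to 2914 contralaterally (median 2419) and from 3349 to 7315 ipsilaterally (median 4998). The groups again did not overlap, but the smallest paired difference, in replicate 4, was 0.20 on the log2 scale. The log2 fold change was 1.01 ± 0.19 (95% interval 0.60 to 1.42; adjusted p = 0.0246), and 1.02% of 13597 genes were regulated in PC (2.12% with a replicate block). The call was lost when any 1 replicate was left out (adjusted p from 0.0532 to 0.128), with replicates 1 to 4 alone (0.79, adjusted p = 0.164) and in the joint fit (adjusted p = 0.528). With the cell types of the sample titles, which set libraries rich in MG markers against PC libraries, the value for Angpt2 was -4.24. Several markers moved in the same PC libraries. The summed smooth muscle markers were lower ipsilaterally in all 6 pairs. The AC markers summed to 335 to 2615 contralaterally and 1390 to 3269 ipsilaterally. The PC markers themselves summed to 26576 to 120082 and 19546 to 97171. The MG markers summed to 261 to 16124 contralaterally and 268 to 36252 ipsilaterally, the neutrophil markers to 0 to 897 and 41 to 12052, and the monocyte and macrophage markers to 245 to 3844 and 99 to 31304. Their part in the Angpt2 difference was not tested.

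Contralateral PC had more Angpt2 than contralateral EC in each replicate number, 2434 ± 295 against 975 ± 484 (SD, n = 6). The ranges, 2117 to 2914 and 418 to 1809, did not overlap. In the joint limma fit the difference of 1.46 ± 0.70 did not pass the threshold (adjusted p = 0.103). The error of that fit also includes the spread of AC and MG. Ipsilaterally the 2 levels were 5085 ± 1550 and 4593 ± 1723, and the difference was 0.17 ± 0.70 (95% interval -1.24 to 1.58; adjusted p = 0.900).

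In MG, Angpt2 rose from a low level. The values were 0 to 34 contralaterally (median 16) and 67 to 206 ipsilaterally (median 147.5), with no overlap. The log2 fold change was 3.56 ± 0.74 (95% interval 1.97 to 5.14; adjusted p = 0.00747), in a cell type in which 10.6% of 13300 genes were regulated. Without replicate 3 the call was lost (3.29, adjusted p = 0.0503). Other markers separated the same MG libraries without overlap. The MG markers summed to 269590 to 349237 contralaterally and 118157 to 241795 ipsilaterally. The AC markers summed to 2990 to 3888 and 1195 to 2124, and the neutrophil markers to 77 to 959 and 1440 to 16086. MG had been sorted as CD45-low and CD11b-positive cells. The part of these markers in the MG results for Angpt2, Tek and Angptl4 was not tested. The EC markers overlapped, with sums of 297 to 1374 contralaterally and 219 to 2962 ipsilaterally. Relative to the mean of the EC libraries of the same hemisphere, these markers amounted to 0.946% and 1.43%, and Angpt2 to 1.62% and 2.98%. The part of EC and PC transcripts in the MG values of Angpt2 was not tested.

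In AC, Angpt2 ranged from 0 to 96 contralaterally (median 25) and from 28 to 299 ipsilaterally (median 145.5), and the groups overlapped. The log2 fold change was 3.12 ± 1.01 (adjusted p = 0.344). None of the 7 genes was regulated in AC by limma, 1 had an unadjusted p under 0.05, and 0.341% of 15264 genes were regulated (1.42% with a replicate block). The call of Angpt2 in AC depended on the model, with an adjusted p of 0.0519 with the replicate as a random block, 0.0284 with the replicate as a fixed effect and 0.0148 in the joint fit of 48 libraries. Relative to EC of the same hemisphere the Angpt2 level in AC was 3.26% and 3.49%, and the EC markers 1.01% and 1.21%. The PC markers in AC were 1616 to 9434 contralaterally and 1007 to 5243 ipsilaterally.

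**Figure D2:**
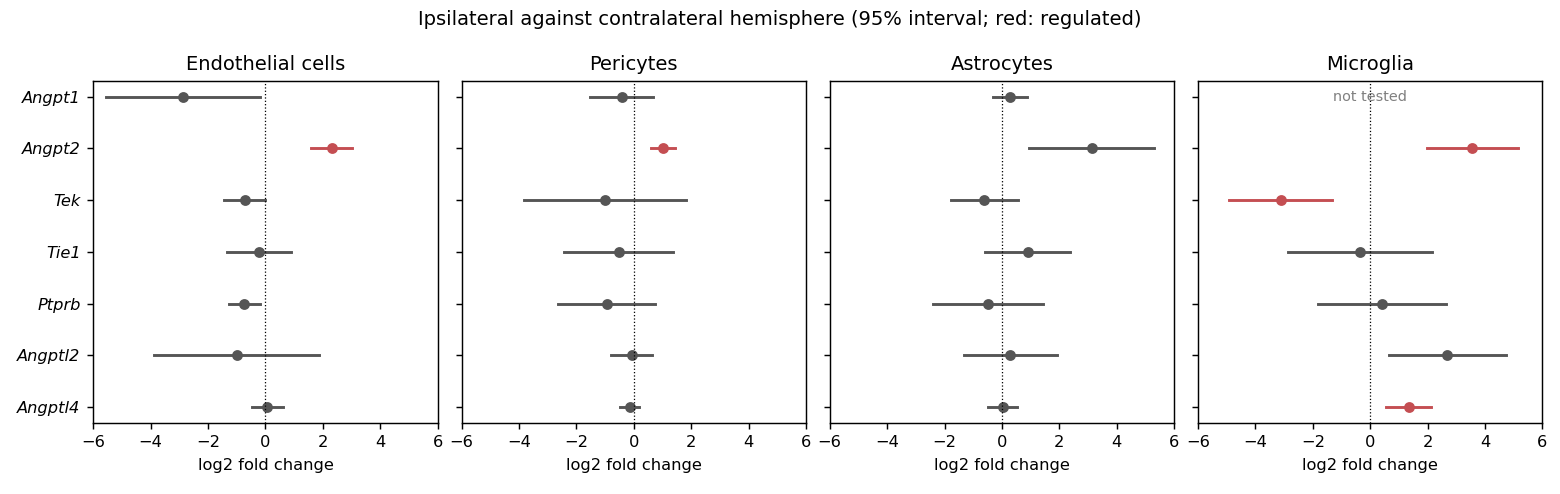
Log2 fold change of the 7 genes, ipsilateral against contralateral hemisphere, in the limma fit of each cell type, with 95% intervals (n = 6 against 6). Red marks the regulated genes, which were Angpt2 in EC (2.30), PC (1.01) and MG (3.56), Tek in MG (-3.12) and Angptl4 in MG (1.35), and Angpt1 in MG was too low for a test.

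The levels of both ligands were then set against each other, with Angpt2 taken from EC and Angpt1 from PC of the same replicate. The log2 balance, log2(Angpt2 + 1) minus log2(Angpt1 + 1), was 0.0054 ± 1.10 in the contralateral and 2.73 ± 1.02 in the ipsilateral hemisphere (SD, n = 6). It was higher ipsilaterally in 6 of 6 pairs, by 1.56 in replicate 1 up to 4.41 in replicate 5, with a mean difference of 2.73 ± 1.14 (SD; exact two-sided sign-flip permutation test, p = 0.03125, the smallest value 6 pairs can give). Since the rise of Angpt2 in EC enters this balance, it is not a separate observation. Per kilobase of exon, contralateral EC had 264 ± 131 normalized counts of Angpt2 and PC had 195 ± 117 of Angpt1, and the ipsilateral values were 1245 ± 467 and 158 ± 103 (SD, n = 6). Another angiopoietin, Angpt4, was not part of the balance. In PC it had 557 to 2580 normalized counts contralaterally (median 1642) and 225 to 1285 ipsilaterally (median 765). It was lower ipsilaterally in 6 of 6 pairs and was not regulated in the main limma fit.

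**Figure D3:**
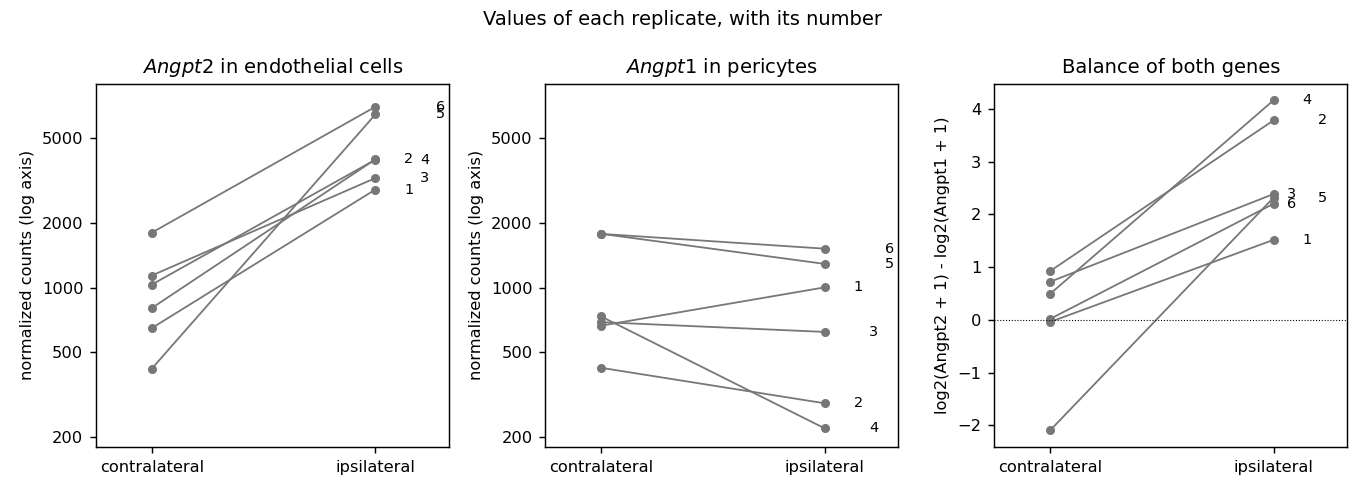
Normalized counts of Angpt2 in EC and of Angpt1 in PC (log axes), and their log2 balance, with a line for each of the 6 replicates from contralateral to ipsilateral. Angpt2 and the balance rose in all 6 replicates, and Angpt1 was lower ipsilaterally in 5 of 6.

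Both receptors were transcripts of EC. Tek ranged from 3634 to 12402 in contralateral EC (median 10432) and from 2508 to 8152 in ipsilateral EC (median 5808.5). The ranges overlapped, 5 of 6 pairs were lower ipsilaterally, and the log2 change of -0.73 ± 0.33 did not pass the threshold (unadjusted p = 0.0472; adjusted p = 0.409). Tie1 ranged from 1685 to 12261 (median 10625) and from 1859 to 11701 (median 8183.5), was higher ipsilaterally in 3 of 6 pairs, and changed by -0.21 ± 0.52 (adjusted p = 0.921). The lowest Tie1 values came from replicate 2 contralaterally and replicate 1 ipsilaterally, which were also the lowest values of Tek in their groups, while the EC markers of these libraries summed to 74318 and 69421.

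Ptprb, the phosphatase that acts on Tek, was lower in ipsilateral EC in all 6 pairs. Its values were 13417 to 19934 contralaterally (median 15880.5) and 5422 to 16599 ipsilaterally (median 10525), and the groups overlapped. The log2 change of -0.73 ± 0.26 (95% interval -1.28 to -0.18) had an unadjusted p of 0.0122 and an adjusted p of 0.246, so it was not called. Per kilobase of exon, contralateral EC had 1984 ± 720 normalized counts of Tek, 1937 ± 801 of Tie1 and 1234 ± 177 of Ptprb, and ipsilateral EC had 1178 ± 398, 1627 ± 707 and 783 ± 290 (SD, n = 6). On this scale Angpt2 stood far below its receptor in contralateral EC and at a similar level in ipsilateral EC.

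Outside EC, these 3 genes were low, as were the EC markers, and both are given side by side. As a percentage of the EC mean, contralateral PC had 2.29% of Tek, 2.02% of Tie1 and 1.85% of Ptprb beside 2.69% of the EC markers, and contralateral AC had 0.916%, 0.607% and 0.797% beside 1.01%. In ipsilateral PC the values were 2.83%, 3.14% and 2.92% beside 3.59%, and in ipsilateral AC they were 1.02%, 1.47% and 0.961% beside 1.21%. Ipsilateral PC replicate 6 had the highest values of its group for Tek (568), Tie1 (700), Ptprb (1063) and the EC markers (7509). In PC the stroke changes of Tek, Tie1 and Ptprb were -0.99 ± 1.32, -0.52 ± 0.88 and -0.94 ± 0.79, with adjusted p of 0.766, 0.825 and 0.610. In AC they were -0.62 ± 0.55, 0.89 ± 0.69 and -0.49 ± 0.89, with adjusted p of 0.796, 0.749 and 0.911.

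In MG, Tek was regulated. It fell from 82 to 184 normalized counts contralaterally (median 122) to 0 to 87 ipsilaterally (median 15.5). All 6 pairs were lower, although the highest ischemic library, replicate 4, overlapped with the lowest controls. The log2 fold change was -3.12 ± 0.84 (95% interval -4.91 to -1.32; adjusted p = 0.0281), where 6.27% of genes were regulated downward in MG. Tek in MG was 1.30% of the EC mean contralaterally and 0.495% ipsilaterally, whereas the EC markers in the same libraries were 0.946% and 1.43%. Tie1 (0.933% and 0.840%) and Ptprb (0.762% and 0.753%) changed by -0.35 ± 1.18 (adjusted p = 0.870) and 0.42 ± 1.04 (adjusted p = 0.821) in MG. The call of Tek in MG was lost in each of 7 alternatives, which were a pseudocount of 0.1, the removal of replicate 1, of 3, of 5 or of 6, the use of replicates 1 to 4 alone, and the cell types of the sample titles. The last of these compares contralateral MG with the libraries whose columns name ipsilateral PC, and so compares cell types.

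**Figure D4:**
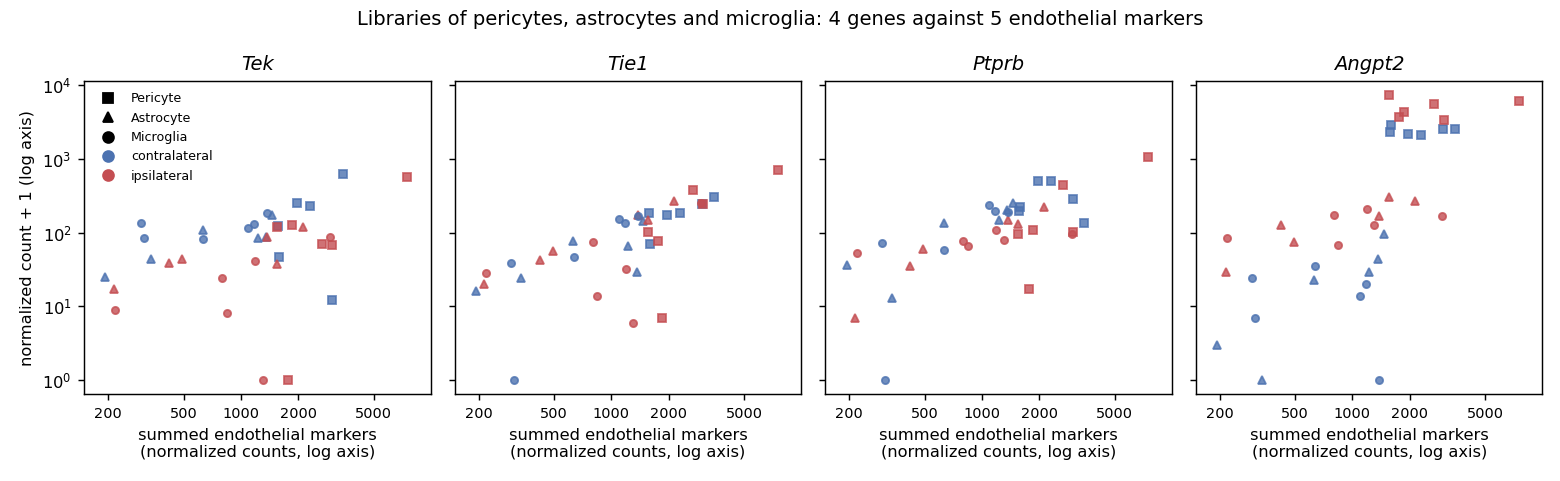
Tek, Tie1, Ptprb and Angpt2 (normalized count + 1, log axis) against the sum of 5 endothelial markers (log axis) in each PC, AC and MG library of the contralateral (blue) and ipsilateral (red) hemisphere. Ipsilateral MG libraries had 0 to 87 normalized counts of Tek and 67 to 206 of Angpt2, against 82 to 184 and 0 to 34 contralaterally, while their marker sums overlapped (219 to 2962 and 297 to 1374).

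Of the angiopoietin-like genes, Angptl2 was found in PC and AC. Its contralateral values were 163 to 678 in PC (median 442) and 53 to 732 in AC (median 102.5), a difference of 1.40 ± 0.99 that did not pass the threshold (adjusted p = 0.251). The AC values fell apart by replicate in both hemispheres. They were 547 and 732 contralaterally and 478 and 776 ipsilaterally in replicates 5 and 6, and at most 132 and 159 in replicates 1 to 4. The PC markers in AC were also highest in replicates 5 and 6, with sums of 9434 and 5676 contralaterally and 5243 and 4161 ipsilaterally. The oligodendrocyte lineage markers were lowest in replicate 6 (31542 and 60776). Their part in the AC values of Angptl2 was not tested. The changes after stroke were -0.06 ± 0.33 in PC (adjusted p = 0.948), 0.29 ± 0.76 in AC (adjusted p = 0.941) and -1.002 ± 1.34 in EC (adjusted p = 0.828). In MG, Angptl2 was 0 to 24 contralaterally (median 17.5) and 22 to 189 ipsilaterally (median 38.5), and the change of 2.68 ± 0.95 had an adjusted p of 0.0827.

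Angptl4 was abundant in the vascular cells and in AC. The contralateral values were 5759 to 9135 in PC (median 6588), 3310 to 7405 in EC (median 5016.5), 2321 to 4085 in AC (median 2936) and 72 to 188 in MG (median 147.5). In the joint limma fit the difference between PC and EC did not pass the threshold (0.42 ± 0.27, adjusted p = 0.234). EC exceeded AC by 0.74 ± 0.27 (adjusted p = 0.0192), and AC exceeded MG by 4.57 ± 0.27 (adjusted p = 2.0e-18). Its level changed little with stroke in the 3 cell types in which it was high. The log2 changes of Angptl4 were 0.06 ± 0.25 in EC (95% interval -0.49 to 0.60), -0.15 ± 0.15 in PC (-0.47 to 0.18) and 0.03 ± 0.24 in AC (-0.48 to 0.54), with adjusted p of 0.963, 0.687 and 0.983.

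In MG, Angptl4 rose to 161 to 715 normalized counts (median 294), higher than the contralateral partner in 6 of 6 pairs but with overlapping ranges. The log2 fold change was 1.35 ± 0.37 (95% interval 0.56 to 2.13; adjusted p = 0.0301), and the call was lost without replicate 3, 4, 5 or 6 and with replicates 1 to 4 alone. Ipsilateral MG libraries held 1.43% of the EC markers, 1.47% of the PC markers and 1.39% of the AC markers of their own cell types, against 0.946%, 0.817% and 2.60% contralaterally. MG replicate 4, the library with the highest Angptl4 value, had the highest EC marker sum of its group (2962) and the highest Angptl2 (189) and Tie1 (254) values. The part of these transcripts in the Angptl4 value of MG was not tested.

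Over all 28 combinations of gene and cell type, the 6 ipsilateral values lay above the 6 contralateral ones without overlap in 3, which were Angpt2 in EC, PC and MG, and below them in 0. Among all genes tested, 1.13% in EC, 0.838% in PC, 0.655% in AC and 3.78% in MG had all ischemic values above all control values, and 0.929%, 1.09%, 0.242% and 4.78% had them below. In MG, 3 of the 6 genes tested were regulated, Angpt2 and Angptl4 upward and Tek downward, where 10.6% of all genes were. This count fell to 0 without replicate 3 and to 1 without replicate 5, without replicate 6 or with replicates 1 to 4 alone. The median log2 change over the genes tested was -0.73 in EC, -0.42 in PC, 0.28 in AC and 0.88 in MG, beside -0.03, -0.04, -0.06 and -0.18 over all genes.

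Whether a stroke change differed between cell types was tested by interaction in the joint fit. Of 42 such contrasts (7 genes, 6 pairs of cell types) 1 passed, the change of Angptl4, which was lower in PC than in MG by 1.49 (log2 difference PC minus MG -1.49 ± 0.38; 95% interval -2.25 to -0.73; adjusted p = 0.0428). Over all genes and pairs 0.231% of contrasts passed, and for PC against MG 0.727%. This call was lost without replicate 3, 4, 5 or 6 (adjusted p from 0.111 to 0.260). The median paired change of Angptl4 was -0.21 in PC, 0.15 in EC, 0.13 in AC and 1.52 in MG. The contrasts of EC and AC with MG did not pass, and p was adjusted within each contrast, so the call is not particular to PC. Before adjustment, 8 of the 42 had p under 0.05. For Angpt2 the change in PC was lower than in MG by 2.54 ± 0.99 (adjusted p = 0.256) and lower than in AC by 2.11 ± 0.99 (adjusted p = 0.777), and the changes in EC and PC differed by 1.29 ± 0.99 (95% interval -0.71 to 3.28; adjusted p = 0.810). These errors come from a variance that the joint fit shares over all 8 groups. The contralateral SD of log2 Angpt2 was 2.51 in AC, 1.86 in MG, 0.73 in EC and 0.17 in PC. Ipsilaterally it was 1.27, 0.64, 0.52 and 0.45. The error of the EC and PC contrast therefore does not reflect the spread of EC and PC alone. For Tek the change in EC exceeded that in MG by 2.39 ± 1.29 (adjusted p = 0.494), so the fall in MG was not shown to differ from the other cell types.

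Genes around the pathway were read from 6 lists with 58 further genes: other angiopoietins and angiopoietin-like genes, Tie receptor signalling, partners at the junction and shedding, regulators of Angpt2 transcription, receptors and enzymes bound by the 7 genes, and PPAR target genes. In EC, 2 of 50 tested genes were regulated, both upward, beside 0.491% of all genes. The count was 0 without replicate 4 or without replicate 6, and 1 (Plin2) without replicate 1 or without replicate 5. With replicates 1 to 4 alone neither Mmp14 nor Plin2 was called, and Lpl was. Mmp14, a membrane-bound metalloproteinase that can shed Tek, rose from 81 to 232 normalized counts (median 95) to 320 to 1003 (median 404), with a log2 fold change of 2.10 ± 0.36 (adjusted p = 0.0187). Plin2, a lipid droplet coat protein and PPAR target, rose from 870 to 1765 (median 1454.5) to 2615 to 6523 (median 4028.5), by 1.59 ± 0.24 (adjusted p = 0.0100). Neither gene overlapped between the hemispheres in EC. Mmp14 had higher means in AC (2675 contralaterally and 2121 ipsilaterally) and in MG (816 and 1259) than in EC (115 and 501), and Plin2 was higher in ipsilateral MG (9515) than in ipsilateral EC (4201). AC and MG markers differed between the same EC libraries, and their part in these values was not tested. In the main limma fit, none of the 20 signalling genes was regulated in EC. None of the 6 regulators of Angpt2 transcription (Hif1a, Epas1, Klf2, Klf4, Ets1, Gata2) was regulated either. Of each list, 3 had an unadjusted p under 0.05. With a replicate block 3 listed genes were called in EC, and with the block as a fixed effect 2.

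In PC, 1 of 51 genes was regulated, Plin2, from 426 to 893 (median 575.5) to 1069 to 6655 (median 2334), by 2.05 ± 0.40 (adjusted p = 0.0281), beside 1.02% of all genes. The call of Plin2 in PC was lost without any one of replicates 2 to 6 (adjusted p from 0.0516 to 0.142) and with replicates 1 to 4 alone (0.0808), where Dok2 was called instead. Ipsilateral MG had more of both transcripts than ipsilateral PC, with means of 9515 against 2993 for Plin2 and 670 against 223 for Dok2, and the MG markers in ipsilateral PC summed to 9.23% of the MG mean on average and 20.997% at most. Their part in the PC values of Plin2 and Dok2 was not tested. With a replicate block 2 were called, Plin2 and the phosphatase gene Ptprj. In AC, 1 of 49 was regulated, beside 0.341% of all genes, and this was the integrin subunit Itga5, which pairs with Itgb1 as a receptor for Angptl2. Itga5 rose from 20 to 280 normalized counts (median 121) to 346 to 1475 (median 753.5), by 2.87 ± 0.57 (adjusted p = 0.0466), and with a replicate block 2 genes were called in AC, Itga5 and Lpl. The call of Itga5 in AC was lost without any one of replicates 1 to 5 (adjusted p from 0.0760 to 0.279), with replicates 1 to 4 alone (0.0518, where Lpl was called instead), with a pseudocount of 0.1, with no filter and with a minimum mean of 50. Neutrophil markers in these AC libraries summed to 1 to 809 contralaterally and 179 to 4792 ipsilaterally, and their part in the Itga5 value was not tested. AC, EC and PC were sorted from CD45-negative cells, a gate meant to remove immune cells.

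In MG, 8 of 49 genes rose and 3 fell, where 4.29% of all genes rose and 6.27% fell. The MG, AC and neutrophil markers separated the same libraries without overlap, and their part in these changes was not tested. The genes that rose included Lpl, the lipase that Angptl4 inhibits, from 1078 to 1757 normalized counts (median 1248) to 9374 to 27761 (median 22982.5), by 3.88 ± 0.26 (adjusted p = 1.3e-06). The fatty acid receptor Cd36 rose by 3.32 ± 0.41 (adjusted p = 2.4e-04) and Plin2 by 2.87 ± 0.28 (adjusted p = 2.9e-05). Of the signalling genes, Iqgap1, a scaffold protein, rose by 2.68 ± 0.28 (adjusted p = 5.7e-05), the adaptor Dok2 by 2.44 ± 0.26 (adjusted p = 8.2e-05) and the actin nucleator Diaph1 by 1.50 ± 0.27 (adjusted p = 0.00343). In all, 3 of 19 Tie receptor signalling genes rose in MG and 1 fell. Itga5 rose by 1.56 ± 0.48 (adjusted p = 0.0493), a call that was lost without replicate 1, 3, 4, 5 or 6. Angptl7 fell by 4.62 on the log2 scale, from 43 to 183 normalized counts (median 114.5) to 0 to 20 (median 4.5) (SE 0.83; adjusted p = 0.00313). Of the 6 partners at the junction and the 6 regulators of Angpt2 transcription tested in MG, 0 were regulated by limma, with an unadjusted p under 0.05 for 1 and 3 of them. With a replicate block 15 listed genes were called in MG, among them the partner Vegfa (1.46, adjusted p = 0.0393) and the regulators Klf4 (-0.96, adjusted p = 0.0409) and Ets1 (-0.90, adjusted p = 0.0452). With the block as a fixed effect 11 were called, and of these 3 genes it called Ets1 (adjusted p = 0.0358) but not Vegfa (0.0605) or Klf4 (0.0662).

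Across the 48 libraries, the genes whose log2 levels followed each of the 7 most closely were found by Pearson's r, which describes libraries that differ in cell type, depth and replicate. For Ptprb they were Flt1 (r = 0.955), Podxl, Ly6c1, Vwf and Foxq1, and for Tie1 they were Foxq1 (r = 0.938), Gata2, Ptprb, Nos3 and Flt1. Tek was closest to Grasp (r = 0.902), Adgrf5, Gpcpd1, Foxq1 and Gata2. For Angpt2 the closest were Ifitm2 (r = 0.922), Ecm1, Apold1, Slc25a24 and S100a11, and within the 12 EC libraries they were Stc1 (r = 0.965), Tubb6, Adamts4, Bcr and Apln. Angpt1 was closest to Prkaa2 (r = 0.929), Slc4a3, Col4a5, Plce1 and Amigo2, Angptl2 to Gjb2 (r = 0.826), BC051019, Ccdc160, Syt5 and Matn2, and Angptl4 to Nedd4 (r = 0.960), Cavin3, Fermt2, Capn2 and Bhlhe40. Among the 7 genes themselves, Tie1 and Ptprb had an r of 0.937, Tek and Ptprb 0.864, and Angpt1 and Angpt2 0.303.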

How the data were processed

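RNA of sorted cells was amplified with a SMART-Seq kit that does not mark strand and sequenced as single-end reads. Per the labels and the study's methods, the authors trimmed reads with Trimmomatic (0.38), aligned them to GRCm38 (mm10) with STAR (2.6.1d), counted reads per gene with featureCounts (1.6.3) and normalized the counts of all 48 libraries with DESeq2 (1.18.1). The deposited table holds these normalized counts rounded to whole numbers, a score here rather than raw counts, so that no count model was run. In that counting step the authors dropped any read without a single position and a single gene.

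Values were analysed as log2(value + 1) with limma (3.58.1, lmFit and eBayes with trend, two-sided, Benjamini-Hochberg over all genes tested) in R 4.3.3, separately for the 12 libraries of each cell type testing those whose mean reached 10 normalized counts. Fold changes are on this scale, and those of low genes depend on the pseudocount, most where a library is at 0. A regulated gene had an adjusted p of at most 0.05, a change of at least 1.5-fold either way and a value above 10 in each of the 6 libraries of a hemisphere. Differences between cell types came from a joint limma fit of the 48 libraries. That fit gives each gene a residual variance shared by all 8 groups, so the spread of a cell type enters the errors of the others. Errors beside log2 differences are standard errors. Promoters came from RefSeq (GRCm38.p6) and gene coordinates from the deposited table, which matched GENCODE M21 for 4 of the 7 genes. The fits were tested on simulated data. The 7 genes, the gene lists and the alternatives were chosen with earlier results of these data known. Named were the 7 genes, the regulated genes of the lists (at most 8 per cell type, by absolute fold change) and the 5 genes closest to each of the 7 by Pearson's r. Ptprj in PC, Lpl in AC and Vegfa, Klf4 and Ets1 in MG, called with the replicate block, and Lpl in EC and AC and Dok2 in PC, called with replicates 1 to 4 alone, were added after their values were seen. Angpt4 in PC, not regulated in the main fit, was added in the same way.

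Replicate numbers were taken to pair the hemispheres, because both hemispheres came from the same pooled mice. The deviations of same-numbered libraries from their group means had a mean correlation of 0.227 in EC, 0.227 in PC, 0.380 in AC and 0.135 in MG. Those of other numbers had -0.04, -0.04, -0.08 and -0.03. Single same-numbered pairs ranged from 0.010 to 0.550 in EC, -0.073 to 0.418 in PC, 0.019 to 0.658 in AC and -0.028 to 0.353 in MG. The main fit had no block, and fits with the replicate as a random block or, added after the data were seen, as a fixed effect were alternatives. Further alternatives changed the pseudocount, the filter, the scaling, the replicates and the cell type labels.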

Additional observations from a re-analysis of the deposited data

Results flagged for a closer look

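Within the groups of 6 libraries, 7 of 56 combinations of gene and group held a library far from the others by Dixon's criterion (the gap to the next library over the range of the group), where chance gives about 1 in 20. In ipsilateral MG these were the highest values of Angpt1 (25, replicate 6), Tie1 (254, replicate 4) and Angptl2 (189, replicate 4), and in ipsilateral PC that of Tek (568, replicate 6). In EC these were the lowest contralateral value of Tie1 (1685, replicate 2) and the highest values of Angptl2 (120 contralaterally, replicate 3, and 116 ipsilaterally, replicate 2). The Tie1 value of 1685 compared with 9991 to 12261 in the other 5 libraries of its group, while Ptprb in the same library was 13417, the lowest of a range that reached 19934.

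The stroke change of Angptl4 differed between PC and MG by a test of the difference itself (-1.49 in PC minus MG, limma interaction, adjusted p = 0.0428). It was 6 of 6 pairs upward in MG, 4 of 6 in EC, 3 of 6 in AC and 2 of 6 in PC. The contrasts of EC and AC with MG did not pass.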

How the results depend on the processing

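For single genes, 642 of 749 values under an alternative kept their direction and their side of the threshold, 77 lost a call, 9 gained it and 21 changed sign. The 749 values include results without a call in the main fit, which could not lose one. The first count therefore does not measure how stable the calls were. Angpt2 kept its sign in every alternative run but the cell types of the sample titles, with log2 changes from 1.97 to 2.46 in EC, 0.79 to 1.18 in PC, 2.16 to 3.77 in AC and 2.57 to 4.31 in MG. The joint fit shares the variance of a gene over the 8 groups. It called 0 of the 7 genes in EC, 0 in PC and 1 in AC, and among the pathway genes 3 in PC, 2 in AC and 7 in MG. With the replicate block (the pairing by replicate number) 3 pathway genes were called in EC, 2 in PC, 2 in AC and 15 in MG. With the block as a fixed effect they were 2 in EC, 3 in PC, 2 in AC and 11 in MG, plus 1 of the 7 genes in AC. With the random block 19 neighbouring pairs of cell types differed for the 7 genes, against 18 in the main fit. No other count of the 7 genes changed in the block fits that were run. With replicates 1 to 4 alone the calls were 0 of the 7 genes in PC, 1 in MG, 1 pathway gene in EC and 0 differences in stroke change between cell types, and the balance was 2.44 (exact p = 0.125). A pseudocount of 0.1, no filter and a minimum mean of 50 each left 0 pathway genes in AC. With the cell types of the sample titles, 7 of the 7 genes and 28 pathway genes were called in PC and 31 pathway genes in MG, since that fit compares PC with MG libraries. There Angpt2 was -4.24 in PC, Tie1 1.53 and Dok2 -1.42 in MG, each opposite in sign to its reported value, and Tek in MG was not called (-1.01, adjusted p = 0.479).

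Leaving out 1 replicate at a time gave 0 to 1 of the 7 genes in EC, 0 in PC and 0 to 3 in MG, 0 to 3 pathway genes in EC, 0 to 1 in PC and 0 to 1 in AC, 0 to 1 differences in stroke change, and a balance of 2.39 to 2.96 (exact p = 0.0625, the smallest 5 pairs can give). Changes with no call reversed: Angptl2 in PC (-0.356 to 0.0870; 0.185 with replicates 1 to 4), Angptl4 in AC (-0.106 to 0.195; -0.201) and EC (-0.0186 to 0.149; -0.0687), Ptprb in MG (-0.843 to 0.824; -0.0638 with a pseudocount of 10), Tie1 in MG (-1.42 to 0.51; 0.14 with a pseudocount of 0.1), EC (-0.71 to 0.24) and PC (-1.01 to 0.46), and Tek in PC (-1.85 to 0.20). The causes were not tested. Counts over all genes moved too: 65 regulated in EC became 104 with the block, 235 jointly, 36 without a filter and 11 with replicates 1 to 4, and leaving out 1 replicate gave 10 (number 6) to 84 (number 2). In PC 139 became 288, 288, 84 and 31, and 11 (without 4) to 112 (without 2). In AC 52 became 217, 89, 37 and 48, 242 with a fixed block, 34 with a pseudocount of 0.1 32 with a minimum mean of 50, and 12 (without 2) to 61 (without 6). In MG 1404 became 827 in the joint fit 787 with replicates 1 to 4, and 557 (without 3) to 1909 (without 2). In all libraries but ipsilateral MG replicate 3 (8), 3 reads stood for at most 5 normalized counts, which limits the values near 0, such as Angpt1 in contralateral MG.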
